A study of Mus musculus with 9 samples.

Results

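The genes described are the cytosolic ribosomal protein genes of mouse liver: every entry of the deposited table whose symbol is Rpl or Rps followed by a number, plus Rplp0, Rplp1, Rplp2 and Rpsa, without the ribosomal S6 kinases and the pseudogene entries. The rule found 92 genes among 35275 entries. Of these, 77 are the canonical genes, 46 of the large and 31 of the small subunit, and 15 are paralogs, near-copies or other matches. Rps19bp1, which encodes a protein that binds Rps19 and is no ribosomal protein, is among the 15. A filter on low counts kept 85 of the 92, of which 76 are canonical. The other 7 (Rpl24, Rpl3l, Rpl10l, Rpl39l, Rps12l1, Rps12l2 and Rps3a3) had too few counts to be tested.

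Total RNA of C57BL/6 liver was sequenced in 9 libraries, 3 each from mice given vehicle (PBS), AdipoRon or AdipoRonPEG5. AdipoRon is a synthetic small molecule that activates the receptors of adiponectin, and AdipoRonPEG5 is an analog with a polyethylene glycol (PEG) group, as its name says. Injections were given 2 times a day for 5 days at 5 mg/kg, a figure the labels state once for PBS and compounds alike, which makes each compound's dose uncertain. The animals' age is not given, nor whether each library is a separate mouse, and the p-values measure the spread between libraries, which may be technical. No genetic change is named for any group.

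Ribosomal proteins and ribosomal RNA together form the ribosome, and the cell needs all its proteins in matched amounts. The mRNAs of vertebrate ribosomal proteins begin with a C followed by an unbroken run of C and T, the terminal oligopyrimidine (TOP) motif, through which their translation is held back when the growth-control kinase complex mTORC1 is inactive. In liver, where secreted proteins are made in bulk, these mRNAs are among the abundant and steadily expressed ones. RNA sequencing measures their level, not how strongly they are translated.

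The start-site sequence is shown for 7 members, to let the pyrimidine run at the start be seen where the annotation has one. They are the 6 members that both have a pyrimidine run at the annotated start and were higher in AdipoRonPEG5 than in AdipoRon livers (values below), and, as a contrast, Rpl7l1, which has no such run and had the lowest difference of all. Each line gives 60 bases before the start and the first 15 bases of the transcript, 5′ to 3′ on the gene's strand, from RefSeq on GRCm38.p6. Capitals mark the run of C and T from the start on and any CGGAAG or its reverse complement CTTCCG, which contain the core letters that ETS-family transcription factors bind.
Rps6: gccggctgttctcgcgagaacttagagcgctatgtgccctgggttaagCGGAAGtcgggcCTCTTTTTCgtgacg
Rpl28: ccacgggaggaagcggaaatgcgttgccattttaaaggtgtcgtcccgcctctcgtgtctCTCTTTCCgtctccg
Rps15a: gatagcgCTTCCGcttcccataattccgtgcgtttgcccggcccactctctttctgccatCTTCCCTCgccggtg
Rplp2: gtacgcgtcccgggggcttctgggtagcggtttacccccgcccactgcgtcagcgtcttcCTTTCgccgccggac
Rpl14: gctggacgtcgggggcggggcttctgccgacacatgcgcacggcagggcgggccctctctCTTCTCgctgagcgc
Rps10: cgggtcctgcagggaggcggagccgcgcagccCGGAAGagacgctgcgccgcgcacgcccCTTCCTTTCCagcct
Rpl7l1: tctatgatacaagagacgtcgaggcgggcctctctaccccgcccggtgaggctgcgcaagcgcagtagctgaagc
The windows lie at chr4:86857353-86857427 (minus strand, Rps6), chr7:4792905-4792979 (plus, Rpl28), chr7:118116133-118116207 (minus, Rps15a), chr7:141447591-141447665 (plus, Rplp2), chr9:120571457-120571531 (plus, Rpl14), chr17:27635230-27635304 (minus, Rps10) and chr17:46782642-46782716 (minus, Rpl7l1). Each spans the annotated transcription start, with its last 15 bases in the first exon.

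RefSeq promoter entries, 250 bases before to 50 after the start, were matched for 67 of the 92 members and for 27025 genes in all. A C at the annotated start followed by at least 4 C or T was found in 14 of the 67 members, 20.9%, against 3.01% of all genes. Annotated starts can lie some bases from the start a cell uses, so that the absence of a run says only that these letters are not at this position. CGGAAG, on either strand, was found in 44 members, 65.7%, against 18.8% of genes. GGGCGG or its reverse complement CCGCCC, the GC box, was found in 41 members, 61.2%, against 38.2%, and can share the letters CGG with CGGAAG. The 14 members with a start run had a median log2 difference of 0.41 between AdipoRonPEG5 and AdipoRon, with 6 called, and the 49 tested members without it 0.39, with 27 called. For CGGAAG the medians were 0.40 (42 genes) with it and 0.42 (21 genes) without it. The difference between the compounds was thus of similar size in members with and without these letters, which is given as a description with no test.

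Ribosomal protein transcripts took a smaller share of the counts in AdipoRon livers and a larger one in AdipoRonPEG5 livers. The 92 genes held 1.91%, 1.98% and 2.21% of all counts in the 3 vehicle libraries, 1.70%, 1.91% and 1.71% in the AdipoRon libraries and 2.39%, 2.32% and 2.28% in the AdipoRonPEG5 libraries. Means were 2.03% ± 0.154, 1.78% ± 0.116 and 2.33% ± 0.0599 (SD, n = 3 each). The 3 AdipoRonPEG5 libraries were above all others, and AdipoRon 2 lay at the level of vehicle 1. Of the summed FPKM (counts scaled by gene length and by the library total), the members held 4.01% ± 0.212, 3.59% ± 0.188 and 4.60% ± 0.108 in the same order.

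The 9 libraries held 13942322 to 18508950 counts, apart from vehicle 1 with 39473195. A count of 3, the limit that a count of 0 allows, is 0.076 to 0.215 CPM (the count scaled to a common library total) and covers counting error only. Tested members with a mean of at least 50 CPM (77 genes) varied within a group by a median coefficient of variation of 10.2% in vehicle, 7.24% in AdipoRon and 4.93% in AdipoRonPEG5 libraries, against 7.61%, 6.29% and 6.10% for the 2774 genes of that level. The members of a library moved together. In vehicle 3, 84 of 85 members were above their mean over the 9 libraries, with a median deviation of 0.21 on the log2 scale, and in vehicle 1 70 were below it, with a median of -0.07. In vehicle 2 the median was 0.03. All 85 were below their mean in AdipoRon 1 (median -0.32), 81 in AdipoRon 2 (-0.12) and 83 in AdipoRon 3 (-0.27). In the AdipoRonPEG5 libraries 82, 80 and 75 were above it, with medians of 0.21, 0.13 and 0.17. Vehicle 3 thus lay at the level of the AdipoRonPEG5 libraries, and the vehicle group was spread more widely than either treated group.

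**Figure D1:**
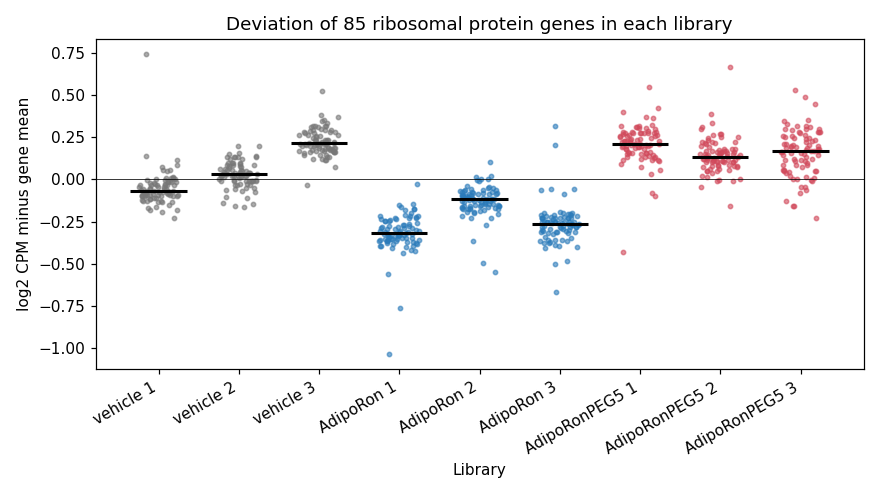
Deviation of each of the 85 tested ribosomal protein genes from its own mean over the 9 libraries (vertical axis, log2 CPM), by library; each point is a gene and each black bar the median. The 3 AdipoRon medians, -0.32 to -0.12, lie below all others, and vehicle 3 (0.21) lies with the AdipoRonPEG5 libraries (0.13 to 0.21).

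**Figure D2:**
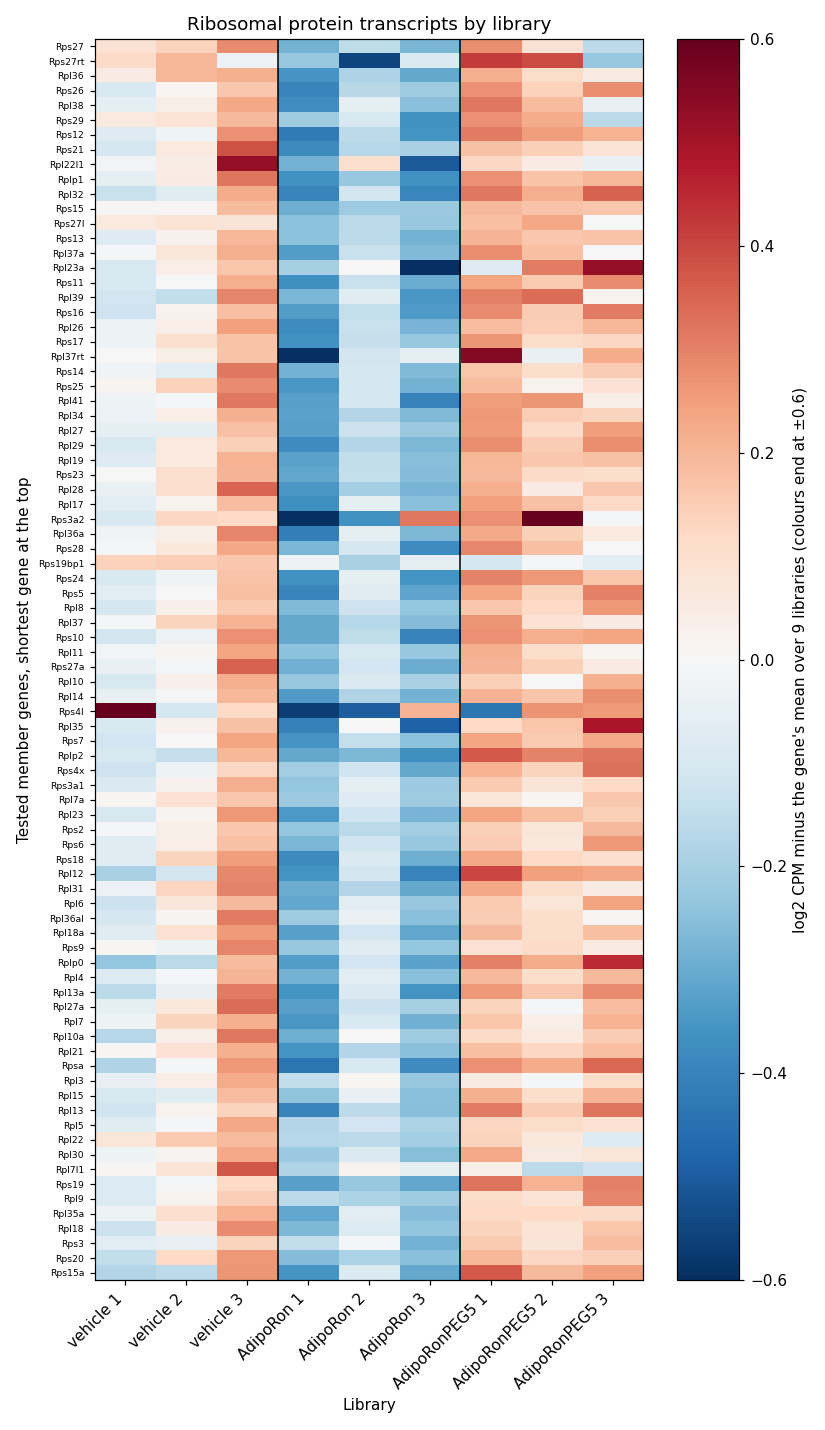
The same deviations gene by gene: rows are 84 of the 85 tested members from the shortest gene (top) to the longest (bottom), columns the 9 libraries, and colours log2 CPM minus the gene's mean, ending at ±0.6. The 3 AdipoRon columns are blue over nearly the whole length range. Rps3a2, Rps27rt and Rpl37rt, which have low counts, are uneven within groups, as is Rps4l.

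Levels were compared in 3 ways, each with the CPM scaled by the trimmed mean of M-values (TMM) and tested with edgeR's quasi-likelihood test. A gene was called when its p, adjusted by Benjamini-Hochberg across the 13151 genes tested, was under 0.05. The groups are shared between the comparisons, so that the comparisons are not independent of each other, and the values of each are given side by side. In 72 of the 85 members the mean of the AdipoRon libraries was below and that of the AdipoRonPEG5 libraries above the vehicle mean.

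Between the compounds, the question is how livers given the PEG analog differ from those given its parent at the labelled dose and time. Ribosomal protein mRNAs were higher with AdipoRonPEG5: 47 of 85 members passed as higher and 0 as lower, against 2.68% of all genes called higher and 2.71% lower. At an unadjusted p under 0.05, 78 members were higher and 0 lower, where 1335 and 1529 of all 13151 genes were. DESeq2 called 65 members higher and 0 lower, limma-voom 51 and 0, where they called 509 and 377 of all genes higher. The median log2 fold change was 0.40, against -0.01 over all genes tested, with a range from -0.01 to 0.70 and 84 members above 0, as were 48.0% of all genes. All 3 AdipoRonPEG5 libraries were above all 3 AdipoRon libraries in 75 members, including the 47, where 13.9% of all genes show this. Of the large subunit, 25 of 45 tested canonical genes passed, of the small subunit 21 of 31, and of the other matches 1 of 9, with medians of 0.40, 0.41 and 0.32. The count moved with single libraries: 66 members passed without vehicle 3, 49 without vehicle 1 and 41 without AdipoRon 2, but 31 without vehicle 2, 5 without AdipoRon 1 or without AdipoRonPEG5 1, 8 without AdipoRon 3, 9 without AdipoRonPEG5 2 and 12 without AdipoRonPEG5 3, while the median stayed between 0.37 and 0.46 over all 9 omissions. Rps19, Rplp2, Rpl14 and Rpl29 were among the 5 members that passed under all 20 alternatives run.

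Against vehicle, AdipoRon livers had lower ribosomal protein mRNAs. All 85 members had a log2 fold change below 0, where 51.1% of all genes had one above 0, with a median of -0.31 against 0.01 over all genes, and 11 passed as lower and 0 as higher. Of all genes, 1.4% were called lower and 3.8% higher. At an unadjusted p under 0.05, 71 members were lower and 0 higher, where 1235 and 1649 of all 13151 genes were. DESeq2 called 39 members lower and 0 higher, limma-voom 17 and 0, where they called 365 and 213 of all genes lower. All 3 AdipoRon libraries were below all 3 vehicle libraries in 58 members, where 12.4% of all genes show this. The 11 were Rpl21, Rpl22, Rpl28, Rpl31, Rpl34, Rpl36, Rpl37 and Rplp1 of the large and Rps15, Rps23 and Rps25 of the small subunit. Calls fell to 0 without vehicle 2 or without AdipoRon 1, 1 without vehicle 3, AdipoRon 3 or AdipoRonPEG5 2, 2 without AdipoRon 2, 5 without AdipoRonPEG5 1 and 7 without AdipoRonPEG5 3, with medians between -0.37 and -0.22 over the 9 omissions.

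Against vehicle, AdipoRonPEG5 changed few of them. Rplp2 and Rps19 passed as higher and 0 members as lower, where 9.55% of all genes were called higher and 7.63% lower, so that the share of members called was below that of all genes. At an unadjusted p under 0.05, 12 members were higher and 2 lower, where 2144 and 1990 of all 13151 genes were. DESeq2 and limma-voom each called 4 members higher and 0 lower, where they called 1294 and 1335 of all genes higher. By these criteria, too, the share of members was below that of all genes. The median log2 fold change was 0.09, against -0.001 over all genes, with 72 members above 0, as were 49.9% of all genes. The groups did not overlap in 7 members higher in AdipoRonPEG5 (among them Rplp0, Rplp2, Rpl13, Rpl29, Rps4x and Rps19) and 1 lower (Rps19bp1), where 18.2% and 17.0% of all genes show this. The count depended on vehicle 3: without it, 12 members passed as higher, where 1288 of 13423 genes tested did. It was 0 without vehicle 1, vehicle 2 or any AdipoRonPEG5 library, and 1 without any AdipoRon library.

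**Figure D3:**
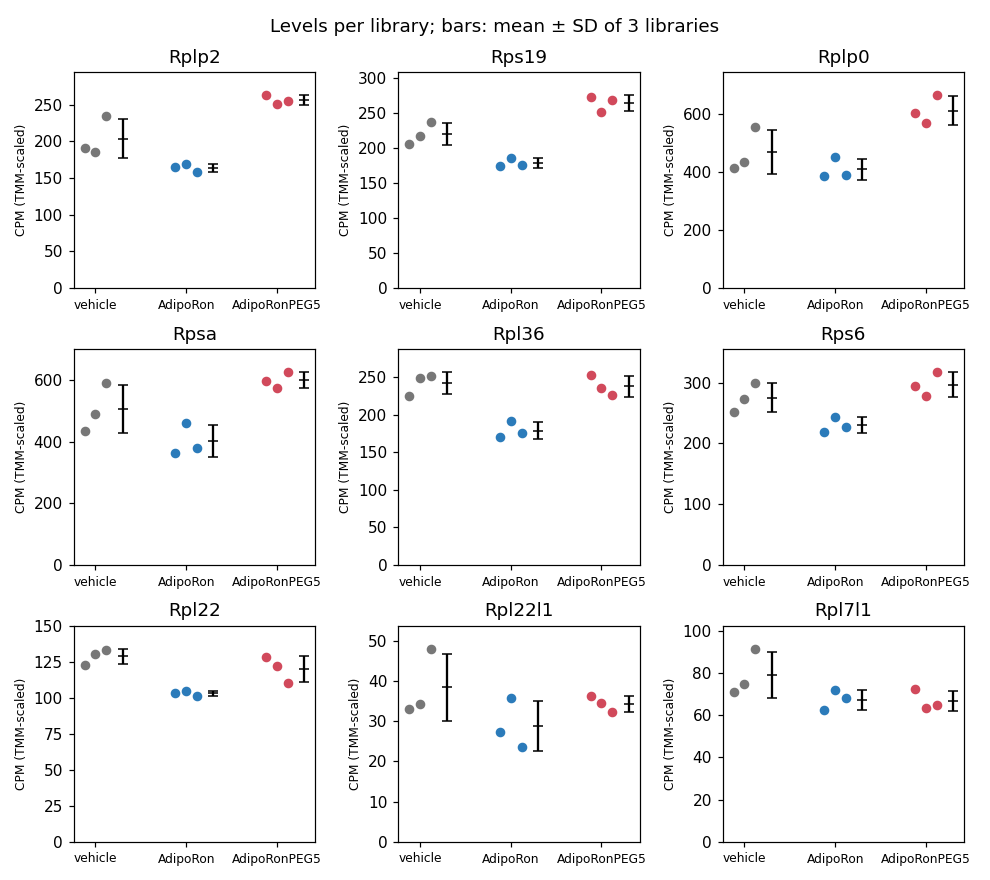
CPM (TMM-scaled, vertical axes from 0) of 9 ribosomal protein genes in each library; points are libraries and bars the mean ± SD of 3. Rplp2 and Rps19 are highest in all 3 AdipoRonPEG5 libraries, Rpl36 and Rpl22 are lowest in all 3 AdipoRon libraries, and the treated groups overlap in Rpl7l1.

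The stalk of the large subunit, built from Rplp0 and the acidic proteins Rplp1 and Rplp2, recruits the elongation factors. Rplp2 was at 191, 185 and 234 CPM in vehicle, 165, 169 and 158 in AdipoRon and 263, 251 and 255 in AdipoRonPEG5 libraries, so that the 3 groups did not overlap. Its log2 fold change was 0.64 ± 0.094 (SE) between the compounds (edgeR, adjusted p = 0.00533), 0.33 ± 0.094 for AdipoRonPEG5 against vehicle (adjusted p = 0.0339) and -0.31 ± 0.094 for AdipoRon against vehicle (adjusted p = 0.0827). The call against vehicle ended without vehicle 1, vehicle 2 or any AdipoRonPEG5 library (adjusted p up to 0.140). Rplp0, which anchors the stalk, was at 415, 434 and 554 CPM in vehicle, 385, 449 and 390 in AdipoRon and 601, 568 and 664 in AdipoRonPEG5 libraries. The AdipoRonPEG5 libraries stood above the rest, and vehicle and AdipoRon overlapped. The difference between the compounds was 0.58 ± 0.12 (edgeR, adjusted p = 0.0233), a call that ended without AdipoRon 1, AdipoRon 3 or any AdipoRonPEG5 library (up to 0.0845), and against vehicle AdipoRonPEG5 missed the threshold at 0.38 ± 0.12 (adjusted p = 0.0533). Rplp1 was at 458, 494 and 596 CPM in vehicle, 371, 408 and 371 in AdipoRon and 578, 538 and 549 in AdipoRonPEG5 libraries. It passed as lower in AdipoRon against vehicle (-0.43 ± 0.11, edgeR, adjusted p = 0.0424) and as higher between the compounds (0.53 ± 0.11, adjusted p = 0.0188), while AdipoRonPEG5 and vehicle overlapped. Leaving out any library other than vehicle 1 ended the first of these calls (adjusted p up to 0.128), and leaving out AdipoRon 1, AdipoRon 3 or any AdipoRonPEG5 library the second (up to 0.0658). Per length, Rplp1 had the highest mean level of all members, with 997 FPKM ± 108 in vehicle, 796 ± 41.6 in AdipoRon and 1139 ± 44.9 in AdipoRonPEG5 livers (SD, n = 3).

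Among the other proteins of the large subunit, Rpl36 had the lowest adjusted p of the members in AdipoRon against vehicle. Its levels were 225, 250 and 252 CPM in vehicle, 170, 191 and 176 in AdipoRon and 254, 235 and 226 in AdipoRonPEG5 libraries. All AdipoRon libraries lay below all others, and vehicle and AdipoRonPEG5 overlapped. It fell by 0.44 on the log2 scale in AdipoRon against vehicle, with an SE of 0.084 (edgeR, adjusted p = 0.0167). The call ended without vehicle 2 or AdipoRon 1 (adjusted p = 0.0657 and 0.0612) and with the length trend removed (0.130). Rpl21 (-0.36), Rpl28 (-0.42), Rpl31 (-0.40), Rpl34 (-0.33) and Rpl37 (-0.36) also passed as lower, and all 5 passed as higher between the compounds, by 0.38 to 0.43. Rpl28, whose start run is printed above, was at 283, 312 and 371 CPM in vehicle, 229, 253 and 240 in AdipoRon and 339, 301 and 326 in AdipoRonPEG5 libraries. Only the AdipoRon group was apart. Rpl29 was at 180, 200 and 212 CPM in vehicle, 148, 170 and 159 in AdipoRon and 233, 213 and 233 in AdipoRonPEG5 libraries. The 3 groups did not overlap, and between the compounds it differed by 0.51 ± 0.088 (edgeR, adjusted p = 0.0104). Rpl14 followed with 0.49 ± 0.087 (adjusted p = 0.0124), Rpl13 with 0.53 and Rpl32 with 0.59.

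Rpl5 and Rpl11 bind the smallest of the large subunit's RNAs and, outside the ribosome, inhibit Mdm2, the ubiquitin ligase of p53. Rpl5 was at 196, 205 and 242 CPM in vehicle, 183, 190 and 181 in AdipoRon and 225, 223 and 219 in AdipoRonPEG5 libraries. Rpl11 was at 338, 345 and 401 CPM in vehicle, 287, 321 and 292 in AdipoRon and 395, 367 and 344 in AdipoRonPEG5 libraries. In both genes the 3 AdipoRon libraries were the lowest, and neither passed in any comparison: between the compounds the log2 fold changes were 0.27 (95% interval 0.08 to 0.46, edgeR, adjusted p = 0.101) and 0.30 (0.08 to 0.51, adjusted p = 0.102). Of 12 genes of p53 and its targets, 0 passed in any comparison with edgeR. At an unadjusted p under 0.05, 1 was higher and 1 lower for AdipoRonPEG5 against vehicle, 0 and 1 for AdipoRon against vehicle and 2 and 1 between the compounds. DESeq2 called 0 in each, and limma-voom 1 higher for AdipoRonPEG5 against vehicle and 0 otherwise. The smallest difference between the compounds among tested canonical genes was that of Rpl3, which reaches close to the peptidyl transferase centre, with 0.17 (95% interval -0.04 to 0.38).

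In the small subunit, Rps19, required for processing of the small subunit's RNA and mutated in Diamond-Blackfan anaemia, had the lowest adjusted p between the compounds of all members. Its levels were 206, 218 and 237 CPM in vehicle, 175, 187 and 176 in AdipoRon and 274, 252 and 269 in AdipoRonPEG5 libraries. The 3 groups did not overlap. It differed by 0.57 ± 0.080 between the compounds (edgeR, adjusted p = 0.00424), by 0.27 ± 0.079 between AdipoRonPEG5 and vehicle (adjusted p = 0.0413) and by -0.30 ± 0.080 between AdipoRon and vehicle (adjusted p = 0.0544). Leaving out any library other than vehicle 3 ended its call for AdipoRonPEG5 against vehicle (adjusted p from 0.0557 to 0.141), as did testing without the filter on low counts (0.0759).

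Rpsa, which is also known as the laminin receptor precursor, was at 436, 492 and 592 CPM in vehicle, 365, 462 and 381 in AdipoRon and 598, 577 and 627 in AdipoRonPEG5 libraries. Vehicle 3 lay within the AdipoRonPEG5 range and AdipoRon 2 within the vehicle range. The compounds differed by 0.58 ± 0.13 (adjusted p = 0.0266). That call ended without AdipoRon 1, AdipoRon 3 or any AdipoRonPEG5 library (adjusted p up to 0.0894).

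Rps6, the protein that S6 kinases phosphorylate downstream of mTORC1, was at 252, 273 and 299 CPM in vehicle, 219, 244 and 227 in AdipoRon and 295, 277 and 318 in AdipoRonPEG5 libraries. Vehicle overlapped with AdipoRonPEG5 and not with AdipoRon. The compounds differed by 0.37 ± 0.092 (edgeR, adjusted p = 0.0437), and the call ended without vehicle 2 or any AdipoRon or AdipoRonPEG5 library (adjusted p up to 0.136). Rps15 (-0.31), Rps23 (-0.34) and Rps25 (-0.39) passed as lower in AdipoRon against vehicle, and Rps15 and Rps23 also as higher between the compounds, by 0.42 and 0.38. Rps12 (0.57), Rps10 (0.53), Rps16 (0.52), Rps15a (0.51) and Rps26 (0.49) were among the larger differences between the compounds. Rps2, the second most abundant member per length with 814 FPKM over the 9 libraries, differed by 0.34. Rps27, with 748 FPKM, did not pass between the compounds (0.32, 95% interval 0.08 to 0.56): AdipoRonPEG5 3, at 170 CPM, lay level with AdipoRon 2, also at 170, while the other AdipoRonPEG5 libraries were at 229 and 201.

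Several members have a close paralog, and both are given side by side. Rpl22, an RNA-binding protein of the large subunit, was at 123, 131 and 134 CPM in vehicle, 104, 105 and 102 in AdipoRon and 129, 122 and 111 in AdipoRonPEG5 libraries. It passed as lower in AdipoRon against vehicle (-0.32 ± 0.075, edgeR, adjusted p = 0.0347), and not between the compounds (0.22, 95% interval 0.06 to 0.38). The first call ended without any 1 library other than AdipoRonPEG5 1 and AdipoRonPEG5 3 (adjusted p up to 0.107). Its paralog Rpl22l1, whose mRNA Rpl22 is known to bind and repress, was at 32.9, 34.3 and 48.0 CPM in vehicle, 27.4, 35.7 and 23.5 in AdipoRon and 36.3, 34.4 and 32.3 in AdipoRonPEG5 libraries. All groups overlapped, and no comparison passed. Per length both lay at a similar level, with 59.8 FPKM ± 5.59 for Rpl22 and 71.4 ± 5.30 for Rpl22l1 in AdipoRonPEG5 livers (SD, n = 3).

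Rpl7l1, a paralog of Rpl7 known from early large-subunit assembly, was at 71.0, 74.6 and 91.4 CPM in vehicle, 62.3, 71.6 and 67.9 in AdipoRon and 72.2, 63.2 and 64.7 in AdipoRonPEG5 libraries. The treated groups overlapped, with a difference of -0.01 (95% interval -0.24 to 0.21), while Rpl7 passed as higher in AdipoRonPEG5, by 0.38 (edgeR, adjusted p = 0.0495). The call of Rpl7 ended under 11 of 20 alternatives (adjusted p up to 0.144), among them without vehicle 2, AdipoRon 1, AdipoRon 3 or any AdipoRonPEG5 library and with the length trend removed. Whether the difference of Rpl7l1 differs from that of Rpl7 was not tested. Rps27l, a p53-regulated paralog of Rps27, was the one member outside the canonical set to pass: it was at 191, 195 and 194 CPM in vehicle, 155, 165 and 157 in AdipoRon and 208, 216 and 184 in AdipoRonPEG5 libraries. The compounds differed by 0.35 ± 0.078 (edgeR, adjusted p = 0.0278), and the call ended without any AdipoRon library, AdipoRonPEG5 1 or AdipoRonPEG5 2 (adjusted p up to 0.114). Rpl36a and Rpl36al differed by 0.38 and 0.26 between the compounds, Rps4x and Rps4l by 0.44 and 0.32, and of these 4 Rps4x passed (edgeR, adjusted p = 0.0232). Rps4l was uneven, at 12.2 to 30.4 CPM. Rpl39 (0.46) did not pass (adjusted p = 0.0708). Rps19bp1 was at 19.1, 19.2 and 19.4 CPM in vehicle, 17.0, 15.1 and 16.7 in AdipoRon and 16.2, 17.2 and 16.6 in AdipoRonPEG5 libraries. Both treated groups lay below vehicle and overlapped with each other, and no comparison passed.

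Some canonical genes had few counts. Rpl24 had 1 to 11 counts per library and Rpl23a 5.46 to 12.6 CPM, and Rpl35 was at 18.8 to 37.0 CPM, low beside a median member; Rpl24 and Rpl35 were chosen after their values were seen. Ribosomal protein genes have many processed copies in the genome, and the sources used here do not give how reads matching several places were counted, so that the levels of single members, the near-copies Rpl37rt, Rps27rt and Rps3a2 included, are uncertain. Rps3a2, at 0.308 to 1.24 CPM, had the largest difference between the compounds, 0.70 with a 95% interval from -0.18 to 1.59. The table lists 246 pseudogene entries named for ribosomal proteins, of which 141 had a count, 783 to 2474 counts per library in all. Of these, 27 were tested and 0 passed in any comparison with edgeR, DESeq2 or limma-voom. At an unadjusted p under 0.05, 4 were higher between the compounds and 3 lower in AdipoRon against vehicle. Their medians were 0.46 between the compounds, -0.42 for AdipoRon against vehicle and -0.05 for AdipoRonPEG5 against vehicle.

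Ribosomal proteins named outside the rule were read beside the members, and 2 of the 3 tested passed as higher between the compounds (range of the 3, 0.26 to 0.40), 1 as lower in AdipoRon against vehicle. Fau, the precursor of Rps30, was at 297, 316 and 326 CPM in vehicle, 219, 233 and 239 in AdipoRon and 300.4, 291 and 301 in AdipoRonPEG5 libraries. It fell by 0.44 in AdipoRon against vehicle on the log2 scale (edgeR, adjusted p = 0.0102) and was higher by 0.37 between the compounds (adjusted p = 0.0218). Rack1, listed as Gnb2l1, a scaffold on the small subunit, was higher by 0.40 between the compounds (adjusted p = 0.0411).

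Genes that work with the ribosome were read in the same way. Of 20 translation factors and other TOP mRNAs, 2 passed as higher and 1 as lower between the compounds, with a median of 0.09. Nap1l1, a histone chaperone whose mRNA has a TOP motif, rose by 0.39 and the translation initiation subunit Eif3f by 0.31, while the helicase Eif4a2 fell by 0.39. Eef1a1 and Eef2, the elongation factors with classical TOP mRNAs, differed by 0.03 and 0.06 (edgeR, adjusted p = 0.889 and 0.798), and are named after their values were seen. For AdipoRonPEG5 against vehicle 1 was higher (Nap1l1, 0.64) and 3 were lower (Eif4b, -0.42, Eif4a2, -0.48, and Naca, -0.27), where 9.55% of all genes were called higher and 7.63% lower, and for AdipoRon against vehicle 1 was lower (Naca, -0.30). Of 47 tested ribosome assembly factors, 5 were lower in AdipoRonPEG5 and 4 in AdipoRon against vehicle, with medians of -0.14 and -0.19, where 7.63% and 1.4% of all genes were called lower. The first of these counts is near that background. The nucleolar phosphoprotein Nolc1 fell in both, by 0.61 and 0.46. Utp20 (-0.50), Rrp9 (-0.42) and Heatr1 (-0.35), which work in processing of the small subunit's RNA, passed in AdipoRonPEG5, and Nop58 (-0.69), Gnl3 (-0.44) and Nip7 (-0.50) in AdipoRon livers. Between the compounds 0 assembly factors passed with edgeR, DESeq2 or limma-voom, with 2 higher and 4 lower at an unadjusted p under 0.05 and a median of 0.04.

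The RNA polymerase I machinery makes ribosomal RNA. Of 15 of its genes, Polr1d (0.36) was higher and Ttf1 (-0.50), a termination factor, lower between the compounds. DESeq2 and limma-voom each called 1 higher and 1 lower there, and with the length trend removed (described below) 0 were higher and 1 lower. Ttf1 was also lower in AdipoRonPEG5 against vehicle (-0.31). In that comparison DESeq2 called 0 of the 15 lower, limma-voom 1, and 2 were lower with the length trend removed. For AdipoRon against vehicle 0 of the 15 passed with edgeR, DESeq2 or limma-voom, with 0 higher and 3 lower at an unadjusted p under 0.05. Of 23 genes of mTORC1 and the control of TOP translation, Eif4ebp1, the translation repressor that mTORC1 inactivates, passed as higher in AdipoRonPEG5 against vehicle and against AdipoRon, by 0.29 each. Its levels were 54.3, 52.2 and 60.5 CPM in vehicle, 56.2, 54.0 and 56.3 in AdipoRon and 70.3, 67.6 and 66.2 in AdipoRonPEG5 libraries, where the last group was apart from the others. This 1 of the 23 is 4.3%, where 9.55% of all genes were called higher against vehicle and 2.68% against AdipoRon. With the length trend removed (described below), 1 of the 23 passed against vehicle and 0 against AdipoRon. For AdipoRon against vehicle 0 of the 23 passed with edgeR, DESeq2 or limma-voom, with 1 higher and 1 lower at an unadjusted p under 0.05.

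Mitochondrial ribosomal proteins, encoded in the nucleus and made on the cytosolic ribosome, showed smaller differences: 9 of 76 were higher and 0 lower between the compounds (31 and 0 at an unadjusted p under 0.05, 9 and 0 with DESeq2 and limma-voom), with a median of 0.15. Mrpl54 had the largest of the 9, 0.78. For AdipoRon against vehicle 7 were lower, among them Mrps16 (-0.37) and Mrpl14 (-0.34), and the median was -0.18. For AdipoRonPEG5 against vehicle 1 was higher and 4 were lower, where 9.55% and 7.63% of all genes were. The median was -0.06, where the cytosolic members had 0.09. Nuclear respiratory chain subunits, which are about as short as the members (median 959 bases), tended to be lower than vehicle in both treated groups. Of 64, 16 were lower for AdipoRon and 12 for AdipoRonPEG5, with medians of -0.24 and -0.16. The median between the compounds was 0.08. With the length trend removed (described below), 4 and 7 of the 64 were lower. Of the mitochondrial ribosomal proteins, 4 were then higher between the compounds and 2 lower for AdipoRon against vehicle. For AdipoRonPEG5 against vehicle 1 of these was then higher and 4 were lower. Of 38 proteasome subunits, 2 were higher between the compounds, Psmb5 (0.45) and Psmd8 (0.42), where 2.68% of all genes were called higher. Against vehicle, 4 were higher and 0 lower in AdipoRonPEG5 livers, where 9.55% and 7.63% of all genes were. In AdipoRon livers 0 passed with edgeR, DESeq2 or limma-voom, with 2 higher and 3 lower at an unadjusted p under 0.05.

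**Figure D4:**
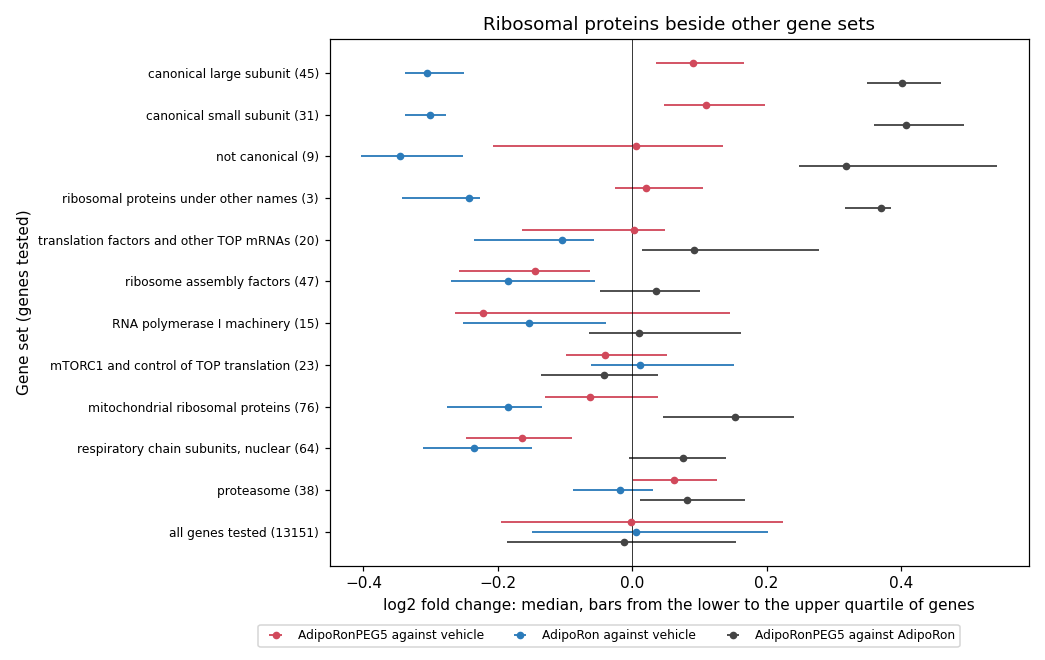
Median log2 fold change (point) and lower to upper quartile of genes (bar) of each gene set and of all genes tested, for the 3 comparisons; the number of tested genes is in brackets. The canonical subunits lie at 0.40 and 0.41 between the compounds, above mitochondrial ribosomal proteins (0.15) and respiratory chain subunits (0.08).

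Ribosomal protein genes are short, and fold changes in these libraries ran with gene length, so that both were read together. Gene length here is the one implied by counts and FPKM. Whether it is that of the transcripts in these livers was not tested. The implied length ran from 255 to 5130 bases in tested members, with a median of 928, against 3046 for the other genes tested. Among those other genes, Spearman's rho between length and log2 fold change was 0.29 for AdipoRon against vehicle, -0.20 between the compounds and 0.07 for AdipoRonPEG5 against vehicle. Among members it was 0.46, -0.26 and -0.03. These are descriptions across genes, which share libraries. Other genes of 600 to 800 bases (280 genes) had medians of -0.20 for AdipoRon against vehicle and 0.13 between the compounds, and members of that length (17) -0.32 and 0.43. For AdipoRonPEG5 against vehicle these were -0.06 and 0.11. The 28 shortest members (255 to 733 bases) and the 28 longest (1242 to 5130) had medians of 0.43 and 0.36 between the compounds, with 16 and 13 called, and -0.32 and -0.27 for AdipoRon against vehicle, with 5 and 3 called.

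When the length trend of the other genes was taken out of each library, 24 members passed as higher between the compounds, with a median of 0.33. In AdipoRonPEG5 against vehicle 9 members then passed as higher, with a median of 0.16. Of all 13151 genes tested, 259 and 1248 were then called higher in these comparisons. The 9 of 85 members were thus near the share of all genes. For AdipoRon against vehicle 0 members then passed, and the median was -0.17. The median for AdipoRon against vehicle thus moved from -0.31 to -0.17, and that between the compounds from 0.40 to 0.33. What gives the libraries their length trend was not tested.

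**Figure D5:**
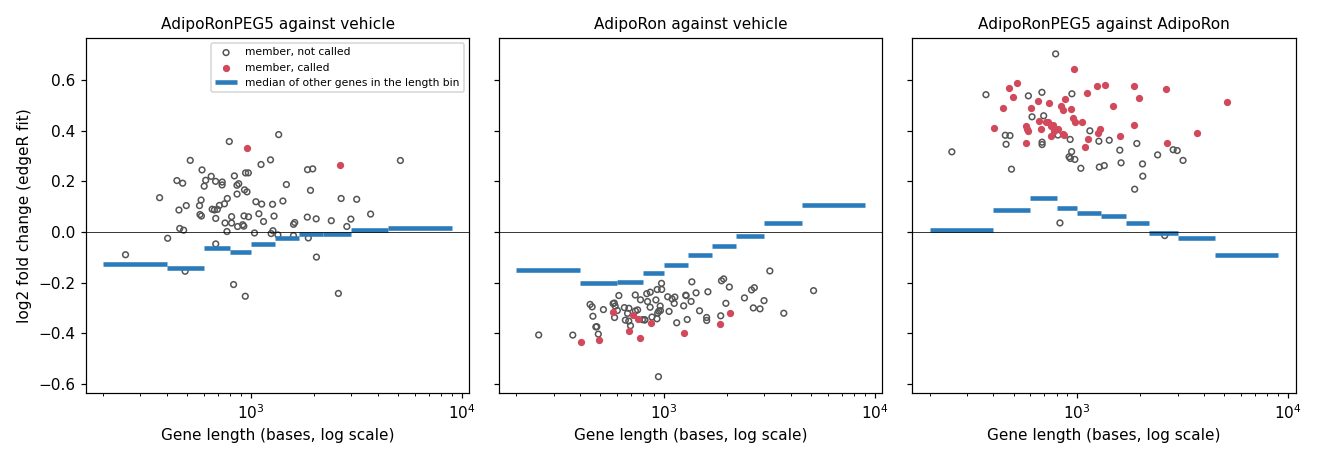
log2 fold change (vertical axis) against gene length (horizontal axis, log scale) for the 85 tested members in each comparison, filled where called, with blue bars for the median of other tested genes by length. In the panel of AdipoRonPEG5 against AdipoRon all but 2 of the members lie above the bars' highest value, 0.13.

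Markers of other cell types also differed between the groups. In bulk tissue, fewer cells of a type and less RNA per cell cannot be told apart. Of 18 markers of macrophages and Kupffer cells, 16 rose in AdipoRonPEG5 and 15 in AdipoRon livers against vehicle, and 0 passed between the compounds with edgeR or limma-voom (1 higher with DESeq2, and 2 higher at an unadjusted p under 0.05). Their summed level was 267 to 416 CPM in vehicle, 613 to 1094 in AdipoRon and 950 to 1017 in AdipoRonPEG5 libraries. Summed markers of lymphocytes were at 7.32 to 9.88, 16.8 to 24.8 and 20.1 to 21.5 CPM, and those of neutrophils at 4.25 CPM or less throughout. Of the 13 lymphocyte markers, 8 were tested. In AdipoRonPEG5 against vehicle 5 of them passed as higher and 1 as lower (0 lower with limma-voom). In AdipoRon against vehicle 3 passed as higher and 0 as lower. The 9 hepatocyte markers summed to 86445 to 95395 CPM in vehicle, 72773 to 80426 in AdipoRon and 77764 to 86426 in AdipoRonPEG5 libraries. Of these 9, 4 passed as lower in AdipoRonPEG5 against vehicle, 0 in AdipoRon against vehicle (3 lower at an unadjusted p under 0.05, 2 with DESeq2, 0 with limma-voom) and 2 as lower in AdipoRonPEG5 against AdipoRon, so that the order of the sums is not that of the calls. Of 8 tested genes of cell division, 6 passed as higher in AdipoRonPEG5 and 3 in AdipoRon against vehicle, with medians of 1.46 and 0.50. In AdipoRonPEG5 against vehicle 2 of the 8 were below 0, with 1 lower at an unadjusted p under 0.05. The 9 listed genes summed to 37.6 to 43.8 CPM in vehicle, 44.9 to 51.1 in AdipoRon and 43.9 to 53.7 in AdipoRonPEG5 libraries. Between the compounds 0 passed with edgeR or limma-voom (2 higher with DESeq2, and 2 higher and 1 lower at an unadjusted p under 0.05). Of 8 stellate cell markers, 1 passed as higher in AdipoRonPEG5 against vehicle (median 0.63, 6 higher at an unadjusted p under 0.05) and 0 in AdipoRon against vehicle with edgeR, DESeq2 or limma-voom (median 0.38, 2 higher at an unadjusted p under 0.05). The 6 erythroid markers summed to 215, 489 and 813 CPM in vehicle, 233, 340 and 400 in AdipoRon and 601, 437 and 480 in AdipoRonPEG5 libraries. They were lowest in vehicle 1 and highest in vehicle 3, as the members were within that group. In the AdipoRonPEG5 libraries the order of markers and members was also the same. In the AdipoRon libraries it was not: the markers were highest in AdipoRon 3, the members in AdipoRon 2 (median deviations -0.27 and -0.12). Of the 4 erythroid markers tested, 0 passed in any comparison with edgeR, DESeq2 or limma-voom. The part of these cell types in the members' differences was not tested.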

How the data were processed

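Each library's read counts per gene were deposited beside FPKM, per the file headers. Per the submitters' processing notes, the tools include HTSeq 0.6.1, STAR 2.5, TopHat, edgeR and DESeq2, whose roles are not stated. Genome build, annotation and strand setting are not given in the sources used here. Each FPKM equalled the count over a whole-number length and the library total (whole within 0.01 for 99.9949% of nonzero values), and those lengths were used. The AdipoRonPEG5 columns are named by another prefix, which the sample descriptions share.

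All 9 libraries entered 1 edgeR 4.0.16 quasi-likelihood fit in R 4.3.3 (TMM, filterByExpr, 3 group means, two-sided), with Benjamini-Hochberg adjustment over 13151 genes, and members were read from it. The fit was tested on simulated data. CPM are TMM-scaled, errors are SD of 3 libraries or SE of the fit, and intervals are at the 95% level. Alternatives were RLE and total-count scaling, other filters, DESeq2 1.42.0, limma-voom 3.58.1, only the 2 groups compared, a replicate block, a length trend removed (lowess, f = 0.3, as offsets), vehicle 1 thinned, and libraries left out. Members, lists and tests were chosen with earlier results of these data known. Named members were all called ones, the 3 highest and lowest fold changes per comparison, the 5 highest and lowest FPKM, paralogs with their partners, and Rpsa, Rps6, Rpl5, Rpl11 and the stalk; of other lists, up to 4 called genes per comparison by lowest p. Of 354 list symbols, Rack1 and Adgre1 were matched through RefSeq synonyms (Gnb2l1, Emr1) and Riok2 was not matched. Some single genes are not reported here and are left out of the figure of single genes by library; they remain in every count and median.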

Additional observations from a re-analysis of the deposited data

How the results depend on the processing

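The number of members called depended on the processing more than their direction did. Among 4076 values compared, all of the named members, 0 called values changed sign, and 57 that passed in neither setting did. The named members were chosen in part by their calls, and all settings use these same libraries. The 0 is therefore no separate test of direction. For AdipoRonPEG5 against vehicle (2 members called), the count was 13 with total-count scaling, where 1698 of 13151 genes were called higher. It was 4 with DESeq2, 4 with limma-voom and 0 with only the 2 groups compared. The count was 9 with the length trend removed, where 1248 genes were called higher, 7 without vehicle 3 and AdipoRonPEG5 1, and 0 to 12 with 1 library left out. For AdipoRon against vehicle (11), it was 1 with total-count scaling, 39 with DESeq2, 17 with limma-voom, 2 with only the 2 groups compared, 0 with the length trend removed, where the median moved from -0.31 to -0.17, 1 without vehicle 3 and AdipoRonPEG5 1, and 0 to 8 with 1 library left out. Between the compounds (47), it was 24 with the length trend removed and 5 to 66 with 1 library left out. Fits with fewer libraries have fewer degrees of freedom; otherwise the cause was not tested. With mitochondrially encoded genes out of the total, the members' share in AdipoRonPEG5 libraries was 2.45%. Total-count scaling moved the median of all other genes from 0.01 to 0.11 for AdipoRon and from -0.003 to 0.08 for AdipoRonPEG5 against vehicle.

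The replicate numbers did not pair the libraries (correlations of same-numbered deviations from -0.268 to 0.0772), and with a replicate block 0, 1 and 15 members were called in the 3 comparisons in the order above. Rpl24 and the 6 other members with too few counts were not tested, and whether depth is the reason was not tested.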
